A study of Homo sapiens with 4 samples.

Results

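Voltage-gated calcium and sodium channels were followed at the RNA level in SY5Y neuroblastoma cells exposed to an inhibitor of the methyltransferase SETD8. The set was taken by name and holds every protein-coding gene called CACNA, CACNB, CACNG or SCN with a digit, plus NALCN. It has 41 genes, of 57820 gene rows and 19404 protein-coding genes in the annotation, and splits into 21 pore-forming subunits (10 of calcium channels, 10 of sodium channels and NALCN) and 20 auxiliary subunits. SY5Y is an established human neuroblastoma line, here with wild-type MYCN, and a line of this kind stands for tumor cells in culture and not for neurons. The 2 control libraries came from cells given the vehicle DMSO. The 2 treated libraries came from cells given the compound that the labels call SGSS05-NS, at 3 µM on the labels and for 12 h. The study's methods name SGSS05-NS3, a covalent SETD8 inhibitor, and state a lower dose for this line. A heat map and comparisons of p53 target genes in this line carry the dose of the labels. A supplementary figure of the study shows RNA-seq values of this line at both doses. The study also uses the name SGSS05-NS for a compound of the same series, so that neither the exact compound nor the dose behind these libraries is settled.

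Voltage-gated channels open when the membrane depolarizes and let calcium or sodium into the cell. A single large pore-forming subunit carries the voltage sensors and the selectivity filter, and smaller auxiliary subunits set how much of it reaches the membrane and how it gates. In calcium channels these are the extracellular, membrane-anchored alpha2delta subunits, the cytoplasmic beta subunits and the gamma subunits, and in sodium channels they are beta subunits with an immunoglobulin-like domain. Several gamma subunits act mainly on AMPA-type glutamate receptors rather than on calcium channels. Neuroblastoma arises from the sympathetic lineage, in which N-type and L-type calcium channels and tetrodotoxin-sensitive sodium channels are known for excitability and catecholamine release.

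The 4 libraries held between 21463105 and 25350204 counts on annotated genes. Values are counts relative to library size scaled by the trimmed mean of M values (TMM-normalized CPM). KMT5A, the gene of SETD8, was at 54.6 and 56.8 CPM in the DMSO libraries and 82.8 and 82.9 CPM in the SGSS05-NS libraries. Its RNA rose (log2 fold change 0.57 ± 0.09, adjusted p = 0.00037), a call that was lost without DMSO replicate 1 (adjusted p = 0.0034) and without DMSO replicate 2 (adjusted p = 0.00123). The compound acts on the protein, so this level does not check the labels. Of 9 noradrenergic markers of the sympathetic lineage, 8 were tested and the other had at most 2 counts in a library. Of the 8 tested, 6 fell at an adjusted p under 0.001 (8.14% of all genes tested fell), among them PHOX2A, HAND2, GATA2 and GATA3. The summed level was between 2875 and 3085 CPM with DMSO and between 1659 and 1891 CPM with SGSS05-NS. Among mesenchymal markers 1 of 6 tested fell and 2 rose (6.37% of all genes tested rose), and PRRX1 was at 0. The mesenchymal sum was between 279 and 316 CPM with DMSO and between 263 and 273 CPM with SGSS05-NS. Markers of Schwann cells, skeletal muscle and immune cells summed to at most 2.57, 0.428 and 0.18 CPM in any library, with SOX10, MYOG and CD3E at 0.

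Of the 41 genes, 26 had enough counts to be tested, 11 pore and 15 auxiliary. The other 15 (10 pore and 5 auxiliary) did not pass the filter, which lay at 0.421 CPM. Of these, CACNA1A, CACNA1F, SCN4A and CACNG3 had no count in any library, and a count of 0 allows a level of up to between 0.12 and 0.135 CPM (3 counts, counting error only). CACNA1A encodes the P/Q-type pore of central synapses, CACNA1F the pore of photoreceptor terminals and SCN4A the skeletal muscle sodium channel. CACNA1S, CACNA1E, CACNA1H, CACNA1I, SCN10A, CACNA2D3, CACNA2D4 and CACNG6 had at most 4 counts in any library. SCN1A, SCN7A and SCN2B lay closest to the filter, with at most 14, 11 and 9 counts. At the low end of the tested genes, SCN11A had 13 and 6 counts with DMSO and 7 and 11 with SGSS05-NS and CACNG5 14 and 10 counts with DMSO and 12 and 16 with SGSS05-NS. Of the tested genes, 3 passed through the SGSS05-NS libraries alone, among them CACNG1 and SCN4B. That these were tested depended on the group in which they were higher.

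Levels were compared between genes per kilobase of the canonical transcript (CPM per kb). The 4 highest genes were auxiliary subunits. CACNG4, a gamma subunit of the group that regulates AMPA receptors, had the highest level in the DMSO libraries with 49.8 and 61.1 CPM per kb. It was followed by CACNA2D1 with 20.2 and 22.2 and CACNA2D2 with 14.1 and 15.6 CPM per kb. These 3 genes did not overlap in their DMSO levels. The next was CACNB3 with 11.2 and 10.8 CPM per kb. The highest pore was SCN3A, the sodium channel of the developing nervous system, at 6.66 and 5.11 CPM per kb, a range that held the 2 values of CACNG7. SCN8A, SCN9A, CACNB4 and CACNG8 were near neighbours in that order, between 1.15 and 1.51 CPM per kb, and of these SCN9A and CACNB4 could not be placed above or below each other.

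**Figure D1:**
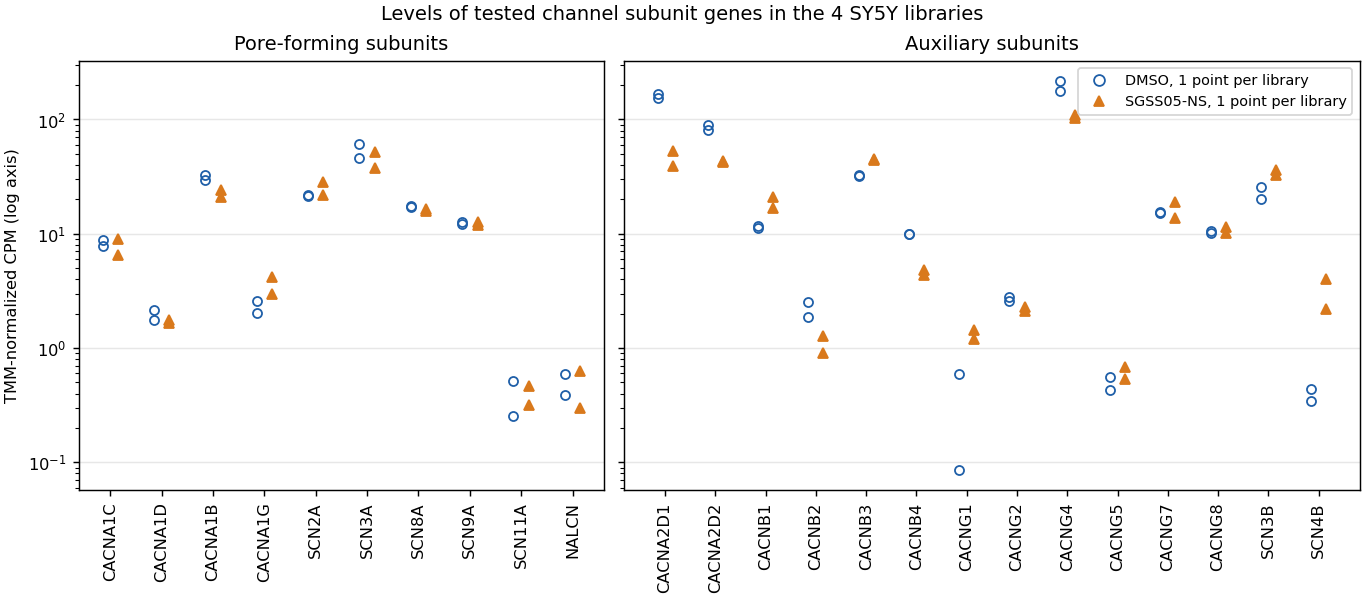
Level of 24 of the 26 tested genes in TMM-normalized CPM on a log axis, pore-forming subunits on the left and auxiliary subunits on the right. Open circles are the 2 DMSO libraries and triangles the 2 SGSS05-NS libraries; CACNA2D1, CACNA2D2, CACNB4 and CACNG4 sit lower with SGSS05-NS and SCN4B higher, while 7 pores overlap between the groups.

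The comparison of SGSS05-NS with DMSO asked what 12 h with the compound did to the RNA of each subunit. Of the 11 tested pores none was called, and of the 15 tested auxiliary subunits 4 fell and 1 rose. At an adjusted p under 0.001, 4 of the 26 tested genes fell, the alpha2delta subunits CACNA2D1 and CACNA2D2, the beta subunit CACNB4 and the gamma subunit CACNG4, against 8.14% of all 16468 genes tested. SCN4B, a sodium channel beta subunit, rose, against 6.37% of all genes. By edgeR's likelihood ratio test the same 4 genes fell and 6 rose, among them SCN4B, CACNB1, CACNB3, CACNG1 and SCN3B, against 13.8% and 12.3% of all genes by that test. At an adjusted p under 0.05 there were 7 lower and 6 higher genes, against 23.7% and 22.6% of all genes. The groups did not overlap in 16 of the 26 genes, against 74.7% of all genes. The median log2 fold change was -0.103 over the 11 tested pores, 0.094 over the 15 tested auxiliary subunits and 0.0116 over all genes tested. Without DMSO replicate 2 the pore median was -0.33, and without SGSS05-NS replicate 1 the auxiliary median was -0.03. In bulk RNA, fewer cells of a type and less RNA per cell cannot be told apart. The noradrenergic markers and the share of fragments outside annotated exons (12.3% to 12.4% with DMSO, 15.3% to 16.1% with SGSS05-NS) moved with the groups, and their part in these results was not tested.

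**Figure D2:**
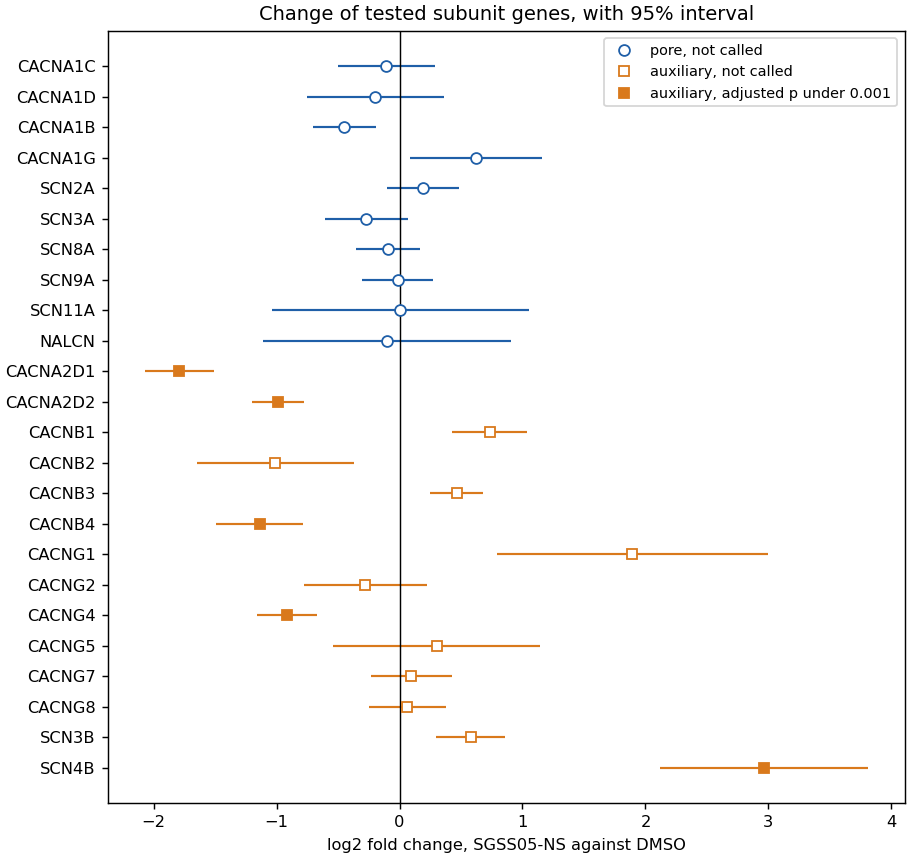
Log2 fold change of 24 of the tested genes, SGSS05-NS against DMSO, with its 95% interval; circles are pore subunits, squares auxiliary subunits and filled symbols genes past an adjusted p of 0.001. No pore symbol is filled, and the filled squares are CACNA2D1, CACNA2D2, CACNB4, CACNG4 and SCN4B.

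Of the calcium channel pores 4 were tested and none was called. CACNA1B, the N-type pore of presynaptic terminals and of sympathetic neurons (chromosome 9, 140772234 to 141019076 on GRCh37), was at 29.7 and 32.4 CPM in the DMSO libraries and 21.1 and 24.4 CPM in the SGSS05-NS libraries. Both treated libraries lay under both controls, but the change did not pass the threshold of 0.001 (log2 fold change -0.45 ± 0.12, adjusted p = 0.00819). CACNA1C, the L-type pore of heart and neurons, was at 7.89 and 8.86 CPM in the DMSO libraries and 6.49 and 9.01 CPM in the SGSS05-NS libraries (log2 fold change -0.11 ± 0.18, adjusted p = 0.655). The treated libraries of CACNA1C took the lowest and the highest of its 4 values, so the groups overlapped. CACNA1D, the L-type pore that opens at more negative voltages, was at 2.15 and 1.75 CPM with DMSO and 1.76 and 1.66 CPM with SGSS05-NS (log2 fold change -0.20 ± 0.26, adjusted p = 0.558). CACNA1G, a low-voltage-activated T-type pore, was at 2.59 and 2.01 CPM with DMSO and 4.15 and 2.98 CPM with SGSS05-NS. Its treated libraries lay above both controls without passing the threshold (log2 fold change 0.62 ± 0.25, adjusted p = 0.0573).

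Of the sodium channel pores 6 were tested, and none of these was called either. SCN3A was at 60.6 and 46.5 CPM in the DMSO libraries and 51.7 and 37.3 CPM in the SGSS05-NS libraries. The spread within each group was as large as the distance between them, and the groups overlapped (log2 fold change -0.27 ± 0.15, adjusted p = 0.173). SCN2A, a channel of central axons, was at 21.9 and 21.6 CPM with DMSO and 28.1 and 21.6 CPM with SGSS05-NS (log2 fold change 0.19 ± 0.13, adjusted p = 0.26). SCN8A, the main sodium channel of mature axon initial segments, was at 17.2 and 17.5 CPM with DMSO and 16 and 16.6 CPM with SGSS05-NS, with an interval of the log2 fold change of -0.35 to 0.17. SCN9A, the channel of sensory and sympathetic neurons in which loss of function abolishes pain, was at 12.2 and 12.6 CPM with DMSO and 12.7 and 11.9 CPM with SGSS05-NS, with an interval of -0.30 to 0.27. The 4 values of SCN9A were intermingled, and those of SCN8A were only just apart. SCN11A, a channel of pain-sensing neurons, had 13 and 6 counts with DMSO and 7 and 11 with SGSS05-NS and an interval of -1.04 to 1.05, so that its direction could not be told.

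For the 11 pores together, the count of called genes was 0 by edgeR's quasi-likelihood test and likewise by its likelihood ratio test, by DESeq2 and by limma voom. Over all genes, 8.14% were called lower and 6.37% higher by the first test, and 13.8% and 12.3% by the second. Of the 16468 genes, DESeq2 called 1576 lower and 1126 higher, and limma voom 1306 and 1005. All these tests used the same 4 libraries. At an unadjusted p under 0.05 by the quasi-likelihood test there were 3 pores, among them CACNA1B and CACNA1G, against 53.5% of all genes tested. The paralogs SCN2A, SCN3A and SCN9A are similar in sequence, and fragments that map to several places were not counted. The genes SCN3A and SCN2A overlap by 9.06 kb on opposite strands of chromosome 2, and the counts used here keep the strands apart.

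NALCN, the pore of the sodium leak channel that sets the resting potential, had 15 and 9 counts with DMSO and 14 and 7 with SGSS05-NS. Its log2 fold change was -0.10 ± 0.46, with an interval of -1.11 to 0.90, so that the direction of NALCN could not be told at this depth. The genes of its partner proteins were far more abundant. NALF1, its auxiliary transmembrane subunit, was at 57.4 and 61.8 CPM in the DMSO libraries and 12 and 13.3 CPM in the SGSS05-NS libraries, 4.71-fold lower (log2 fold change -2.24 ± 0.11, adjusted p = 8.01e-08). UNC79, a large scaffold of the channel, fell from 70.8 and 77.7 CPM to 44.7 and 49.5 CPM (log2 fold change -0.66 ± 0.10, adjusted p = 0.000268), a call lost without DMSO replicate 2 (adjusted p = 0.0013) and without SGSS05-NS replicate 1 (adjusted p = 0.00136). The companion scaffold UNC80 was at 36.1 and 33.9 CPM with DMSO and 31.2 and 30.9 CPM with SGSS05-NS and NALF2 at 5.62 and 4.92 CPM with DMSO and 7.39 and 7.57 CPM with SGSS05-NS. Neither UNC80 (log2 fold change -0.17 ± 0.10, adjusted p = 0.185) nor NALF2 (log2 fold change 0.50 ± 0.17, adjusted p = 0.029) was called.

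The alpha2delta subunits help calcium channels to the membrane, and the products of CACNA2D1 and CACNA2D2 bind the drug gabapentin. CACNA2D1 (ENSG00000153956.11, chromosome 7, 81575760 to 82073272, minus strand, GRCh37) had 3832 and 3906 counts with DMSO and 874 and 1249 with SGSS05-NS. It was at 153 and 167 CPM in the DMSO libraries and 39.4 and 53.1 CPM in the SGSS05-NS libraries, and both treated libraries lay far under both controls. The fall was 3.46-fold (log2 fold change -1.79 ± 0.13, adjusted p = 1.10e-06). CACNA2D2 (ENSG00000007402.7, chromosome 3, 50400044 to 50541675, minus strand) was at 80.4 and 88.7 CPM in the DMSO libraries and 42.2 and 43 CPM in the SGSS05-NS libraries. It fell 1.98-fold (log2 fold change -0.99 ± 0.10, adjusted p = 1.04e-05), with replicates much closer to each other than the groups. The log2 fold change of CACNA2D1 minus that of CACNA2D2, a pair that was not planned, was -0.80 ± 0.16 (standard errors combined as if independent). CACNA2D3 and CACNA2D4 had at most 2 counts in a library, so that nearly all counted alpha2delta RNA came from the 2 genes that fell.

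Promoters are shown for 3 genes that the comparison sets apart, the auxiliary subunit with the largest fall, a pore over 300 kb that was not called and the auxiliary subunit that rose. Each is the 250 bases before the gene's start in RefSeq (GRCh38.p14), written in the direction of the gene, and capitals mark the Sp1 box GGGCGG on either strand. RefSeq starts CACNA1D and SCN4B inside the spans used for them here, so that their windows lie within those spans.

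CACNA2D1 (chr7:82443957-82444206, minus strand): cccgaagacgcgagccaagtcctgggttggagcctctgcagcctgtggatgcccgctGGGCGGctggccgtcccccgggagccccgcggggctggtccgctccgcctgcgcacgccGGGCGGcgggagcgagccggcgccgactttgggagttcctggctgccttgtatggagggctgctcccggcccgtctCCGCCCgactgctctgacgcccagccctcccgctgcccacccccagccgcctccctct

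CACNA1D (chr3:53494361-53494610, plus strand): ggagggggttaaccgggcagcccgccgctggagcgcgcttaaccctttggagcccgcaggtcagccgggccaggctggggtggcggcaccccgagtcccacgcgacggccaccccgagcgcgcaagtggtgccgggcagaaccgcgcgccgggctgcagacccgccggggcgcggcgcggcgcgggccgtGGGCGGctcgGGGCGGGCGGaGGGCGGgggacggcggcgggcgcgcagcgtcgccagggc

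SCN4B (chr11:118145434-118145683, minus strand): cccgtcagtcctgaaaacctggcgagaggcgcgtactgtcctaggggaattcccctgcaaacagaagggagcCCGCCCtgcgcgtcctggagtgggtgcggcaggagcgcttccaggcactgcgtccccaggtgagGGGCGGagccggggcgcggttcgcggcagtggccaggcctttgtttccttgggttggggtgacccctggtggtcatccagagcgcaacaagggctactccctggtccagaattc

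RefSeq promoters matched 27 of the 41 genes. The window of CACNA2D1 held 3 Sp1 boxes and 75.6% G and C, that of CACNA1D 4 boxes, 2 of them overlapping, and 81.6%, and that of SCN4B 2 boxes and 66% G and C. An Sp1 box was present in 17 of the 27 windows, against 42.3% of 27305 promoters of the same length. The median G and C content was 65.6% over the 27 and 58% over all promoters. Other motifs were rare. The TATA box TATAAA was in 1 window (11.1% of all promoters), the heat shock element GAANNTTC in 1 (5.85%), the AP-1 site TGANTCA in 2 (6.6%) and the E-box CACGTG in 2 (6.49%). The cyclic AMP response element TGACGTCA was in none (1.77%) and the p53 half-site consensus in 3 (5.53%), of CACNA1I, CACNB1 and CACNB3. These are matches of letters on both strands and not sites.

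The beta subunits chaperone the calcium channel pore and speed its gating, and their 4 genes split. CACNB4 (ENSG00000182389.14, chromosome 2, 152689285 to 152955681, minus strand) was at 10 and 10 CPM in the DMSO libraries and 4.78 and 4.34 CPM in the SGSS05-NS libraries, and fell 2.2-fold (log2 fold change -1.14 ± 0.16, adjusted p = 0.000173). Without SGSS05-NS replicate 2 the adjusted p of CACNB4 was 0.00124, above the threshold. CACNB2, a beta subunit prominent in heart, was at 2.51 and 1.88 CPM in the DMSO libraries and 0.901 and 1.28 CPM in the SGSS05-NS libraries. Its treated libraries lay under both controls, at a log2 fold change of -1.01 ± 0.29, adjusted p = 0.0148, which did not pass the threshold. The opposite strand of CACNB2 carried more counts than the gene itself, 97 and 79 with DMSO and 81 and 61 with SGSS05-NS, and with counts taken without regard to strand its log2 fold change was -0.54. CACNB3, the most abundant beta subunit, was at 32.9 and 31.7 CPM in the DMSO libraries and 45.3 and 43.8 CPM in the SGSS05-NS libraries, and CACNB1, the beta subunit of skeletal muscle channels, at 11.6 and 11.2 CPM with DMSO and 16.9 and 21 CPM with SGSS05-NS. In both the treated libraries lay above the controls, short of the threshold (log2 fold change 0.46 ± 0.10, adjusted p = 0.00252 for CACNB3 and 0.73 ± 0.14, adjusted p = 0.0013 for CACNB1). The log2 fold change of CACNB4 minus that of CACNB3, a pair that was not planned, was -1.60 ± 0.19.

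Of the 8 gamma subunits 6 were tested, and the most abundant of them, CACNG4, was called. CACNG4 (ENSG00000075461.5, chromosome 17, 64960823 to 65029514, plus strand) had 4477 and 5118 counts with DMSO and 2406 and 2408 with SGSS05-NS, and was at 178 and 219 CPM in the DMSO libraries and 108 and 102 CPM in the SGSS05-NS libraries. It fell 1.89-fold (log2 fold change -0.92 ± 0.11, adjusted p = 4.99e-05), and its lowest control was well above its highest treated library. The other AMPA receptor regulators of the family were not called. CACNG2, known as stargazin, was at 2.79 and 2.57 CPM with DMSO and 2.3 and 2.13 CPM with SGSS05-NS (log2 fold change -0.28 ± 0.23, adjusted p = 0.342), CACNG8 at 10.2 and 10.6 CPM with DMSO and 11.5 and 10.2 CPM with SGSS05-NS (log2 fold change 0.06 ± 0.14, adjusted p = 0.753), and CACNG7 at 15.1 and 15.5 CPM with DMSO and 18.8 and 13.9 CPM with SGSS05-NS (log2 fold change 0.09 ± 0.15, adjusted p = 0.639). The log2 fold change of CACNG4 minus that of CACNG7, a pair that was not planned, was -1.01 ± 0.19. CACNG1, the gamma subunit of skeletal muscle, lies 11.2 kb downstream of CACNG4 on the same strand and had 15 and 2 counts with DMSO and 32 and 28 with SGSS05-NS. The 2 controls of CACNG1 were far apart and its change did not pass the threshold (log2 fold change 1.89 ± 0.51, adjusted p = 0.00935). CACNG5, a further regulator of AMPA receptors on the other side of CACNG4, had 14 and 10 counts with DMSO and 12 and 16 with SGSS05-NS (log2 fold change 0.30 ± 0.39, adjusted p = 0.549).

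The sodium channel beta subunits also act as adhesion molecules, and both SCN4B and SCN3B had positive log2 fold changes. SCN4B (ENSG00000177098.4, chromosome 11, 118004092 to 118023603, minus strand) had 11 and 8 counts with DMSO and 89 and 52 with SGSS05-NS, which is 0.438 and 0.342 CPM in the DMSO libraries and 4.01 and 2.21 CPM in the SGSS05-NS libraries. It rose 7.81-fold (log2 fold change 2.97 ± 0.39, adjusted p = 9.27e-05), and the treated libraries differed from each other more than the controls did. Under a filter of 10 counts in each library SCN4B could not be tested. SCN3B, described as a p53-inducible gene and the dominant sodium beta subunit here, was at 20.2 and 25.6 CPM in the DMSO libraries and 36 and 32.4 CPM in the SGSS05-NS libraries. The groups of SCN3B did not overlap, and its log2 fold change of 0.58 ± 0.13, adjusted p = 0.00334 did not pass the threshold. SCN2B, which lies 9.92 kb from SCN4B, stayed untested with 9 and 4 counts with DMSO and 6 and 5 with SGSS05-NS.

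Pore genes are long, and the relation of change to gene span (first to last annotated base on GRCh37) was examined for this reason. The tested pores had a median span of 206 kb and the tested auxiliary genes one of 34.7 kb. Across genes, Spearman's correlation of span and log2 fold change was -0.75 over the 26 tested genes, -0.93 over the 15 auxiliary genes and -0.27 over the 11 pores. Over all 12567 protein-coding genes tested it was -0.42, and over the 16042 tested genes of any type with a span -0.22. These are descriptions across genes that share the same 4 libraries. Of the genes under 30 kb, 3 passed the filter through the SGSS05-NS libraries alone, where they were higher, among them CACNG1 and SCN4B. All 3 are auxiliary genes and enter the value of -0.93. With at least 10 counts in every library the value over the set was -0.68 (21 genes). Of the 11 pores 10 spanned 100 kb or more, so that short genes hardly enter their correlation. Of tested genes of any type of 100 kb or more, 27.8% fell (787 of 2833). In the set 3 of 15 did, none of the 10 pores and 3 of the 5 auxiliary genes.

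Pore and auxiliary genes are set side by side within classes of span that hold tested genes of any type, the longest first. Of the 621 genes over 300 kb, 53.8% fell, with a median log2 fold change of -1.03. The 3 pores of this class, CACNA1C (727 kb), CACNA1D (485 kb) and NALCN (363 kb), had log2 fold changes of -0.11, -0.20 and -0.10. Between 86.8% and 88.7% of the class had lower values than these pores. The intervals of CACNA1C (-0.50 to 0.29) and CACNA1D (-0.76 to 0.36) lay above the class median, and that of NALCN held it. The auxiliary genes of the class, CACNA2D1 (498 kb) and CACNB2 (403 kb), had 12.6% and 50.9% of the class below them. From first to last annotated base CACNA2D1 and CACNA1D are nearly equal in span, but their canonical transcripts span 497 and 319 kb. Their log2 fold changes differed by -1.59 ± 0.29, CACNA2D1 minus CACNA1D. Against CACNA1C the difference was -1.68 ± 0.22. Both pairs were chosen after their values were seen.

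Among the 2212 genes of 100 to 300 kb, 20.5% fell and the median was -0.33. The 7 pores of this class had a median of -0.09, and SCN2A and SCN9A had intervals above the class median. CACNA1B lay under it, with 39.2% of the class lower. CACNA2D2 (142 kb) and CACNB4 (266 kb) fell and had 8.23% and 5.11% of the class under them, while CACNG2 (143 kb) lay near the middle. In the class of 30 to 100 kb, where 3.78% of 4523 genes fell, CACNG4 (68.7 kb) had 1.53% of the genes under it. The 7 genes under 30 kb were all auxiliary, and all 7 log2 fold changes were positive, with a median of 0.73 against 0.14 over 8686 genes. That class holds the 3 genes, among them CACNG1 and SCN4B, that passed the filter through the SGSS05-NS libraries alone. With the span of the canonical transcript, tried after seeing the data, each of the 26 genes kept its class.

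**Figure D3:**
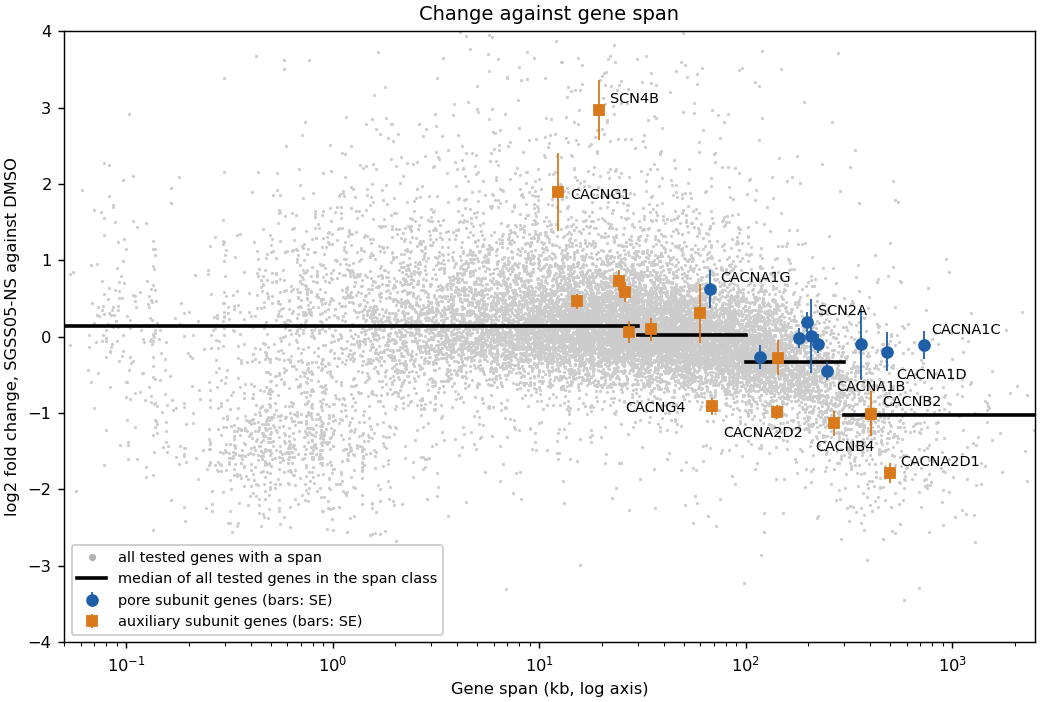
Log2 fold change, SGSS05-NS against DMSO, by gene span in kb on a log axis, with all tested genes in grey (62 lie beyond the plotted range of 4 in either direction), pore genes as circles and auxiliary genes as squares (24 of the 26 tested) with their standard errors. Black lines are the medians of all genes in 4 span classes; CACNA1C and CACNA1D lie above the line for genes over 300 kb and CACNA2D1 below it.

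The makeup of the subunit families is given per kilobase, so that genes of one family can be added. The summed level of the 21 pores was 17.6 and 16.4 with DMSO and 16.1 and 14.1 with SGSS05-NS (CPM per kb), and that of the 20 auxiliary genes 112 and 126 with DMSO and 81.1 and 79.3 with SGSS05-NS. The ratio of the pore sum to the auxiliary sum was 0.158 and 0.129 with DMSO and 0.199 and 0.178 with SGSS05-NS. Auxiliary RNA outweighed pore RNA in every library, and by less in the treated ones. The alpha2delta sum was 34.4 and 37.8 with DMSO and 12.7 and 14.6 with SGSS05-NS, and the share of CACNA2D1 in it 58.9% and 58.7% with DMSO and 41.3% and 48.2% with SGSS05-NS, so that CACNA2D2 became the larger part. The gamma sum was 57.4 and 68.5 with DMSO and 39.9 and 36.1 with SGSS05-NS, with CACNG4 still at 75.7% and 79.1% of it after treatment. The calcium channel beta sum was 16 and 15.4 with DMSO and 20.8 and 21.4 with SGSS05-NS, and CACNB3 made up 70% and 70.3% with DMSO and 74.4% and 70% with SGSS05-NS. Both alpha2delta and gamma sums were thus lower in the treated libraries, and the beta sum higher. CACNB4 was 7.88% and 8.19% with DMSO and 2.89% and 2.56% with SGSS05-NS. The sodium beta sum was 3.87 and 4.82 with DMSO and 7.76 and 7.21 with SGSS05-NS, with SCN4B at 2.53% and 1.58% with DMSO and 11.5% and 6.83% with SGSS05-NS. Among calcium channel pores CACNA1B was 73.3% and 75.4% with DMSO and 64.6% and 67.6% with SGSS05-NS, and among sodium channel pores SCN3A was 49.7% and 42.9% with DMSO and 44.7% and 39.3% with SGSS05-NS. The sums are descriptions and were not tested.

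**Figure D4:**
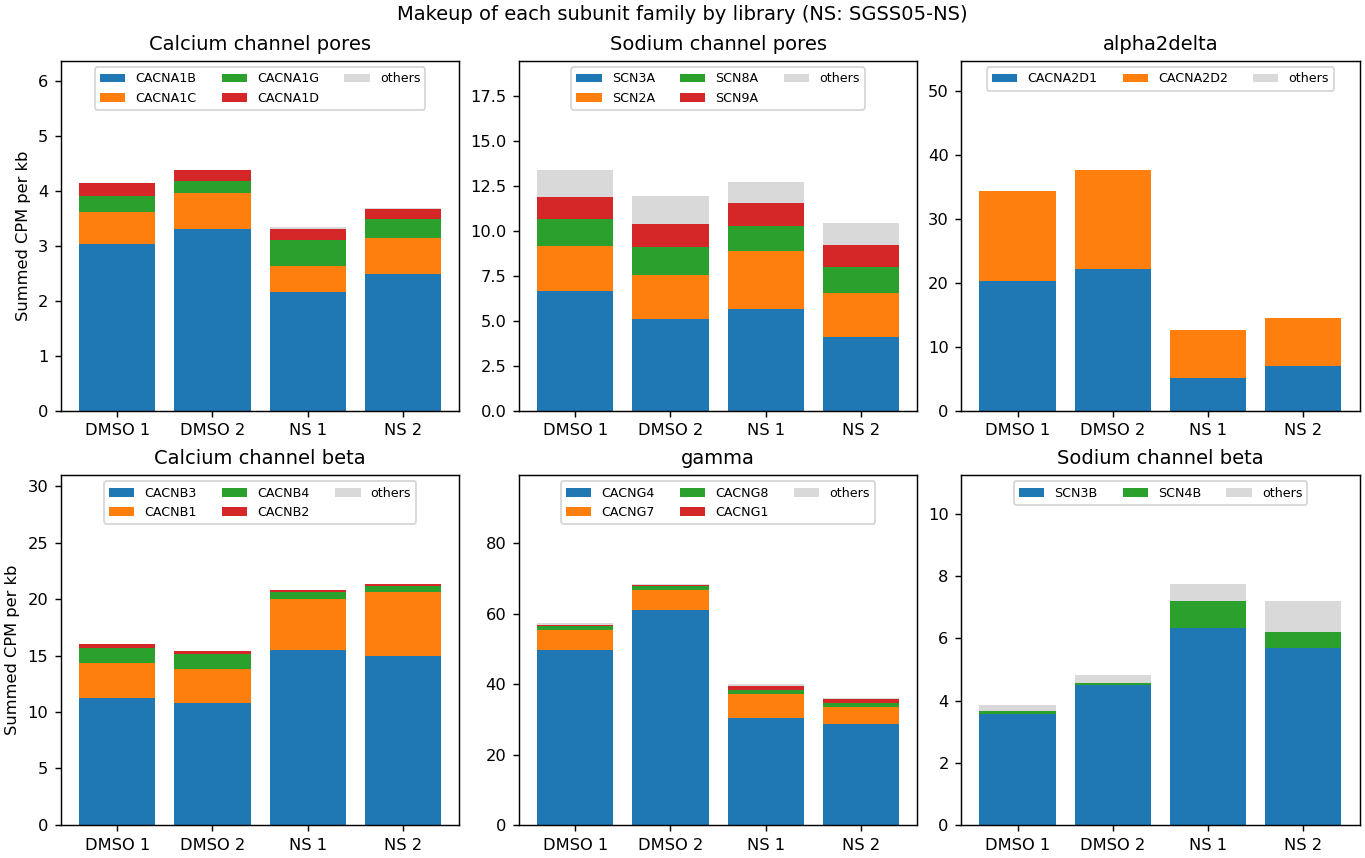
Summed CPM per kb of the canonical transcript in each library, by subunit family and stacked by gene, on linear axes that start at 0 and differ between panels. The alpha2delta and gamma stacks are lower in both SGSS05-NS libraries, both beta stacks are higher, and the sodium pore stacks overlap between the groups.

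Proteins that hold or tune the channels were described from a list of 31 genes. Of 26 tested, 11 fell and 1 rose (42.3% lower, against 8.14% of all genes), with a median log2 fold change of -0.37. Of the 16 with a span of 100 kb or more 10 fell, against 27.8% of all genes of that span. FGF14, an intracellular factor that binds sodium channel tails, was at 27.5 and 29 CPM in the DMSO libraries and 2.7 and 3.06 CPM in the SGSS05-NS libraries and fell 9.78-fold (log2 fold change -3.29 ± 0.15, adjusted p = 2.81e-08). NRCAM, an adhesion molecule that gathers sodium channels at nodes and initial segments, was at 415 and 487 CPM with DMSO and 170.1 and 185 CPM with SGSS05-NS (log2 fold change -1.34 ± 0.11, adjusted p = 2.33e-06). These 2 and NALF1 were lower in every treated library than in any control. RRAD, a small GTPase that binds calcium channel beta subunits and inhibits the channel, had 0 and 1 counts with DMSO and 89 and 69 with SGSS05-NS, a ratio of scaled counts of 167 (exact binomial 95% interval 29.6 to 6656, counting error only), and was called higher (adjusted p = 3.03e-06). RRAD too passed the filter through the SGSS05-NS libraries alone, so that its being tested depended on the group in which it was higher. Its relatives GEM (log2 fold change 0.41 ± 0.22, adjusted p = 0.149) and REM2 (log2 fold change 0.31 ± 0.29, adjusted p = 0.404) were not called, and REM1 had no count.

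Intracellular calcium handling was described from a list of 33 genes, of which 32 were matched and 29 tested. Of these 7 fell (24.1%, against 8.14% of all genes), with a median log2 fold change of -0.32, and the 7 had a span of 100 kb or more, among 17 tested genes of that span (against 27.8% of all genes of 100 kb or more). ITPR1, the inositol trisphosphate receptor that releases calcium from the endoplasmic reticulum, was at 168 and 153 CPM in the DMSO libraries and 69.6 and 62.8 CPM in the SGSS05-NS libraries (log2 fold change -1.28 ± 0.10, adjusted p = 1.98e-06). PPP3CA, a catalytic subunit of the calcium-dependent phosphatase calcineurin, was at 61 and 67.7 CPM with DMSO and 22.3 and 27.9 CPM with SGSS05-NS (log2 fold change -1.36 ± 0.12, adjusted p = 5.36e-06). CAMK4 and CAMK2D, calcium- and calmodulin-dependent kinases, fell as well (log2 fold change -1.09 ± 0.12, adjusted p = 2.24e-05 for CAMK4 and -0.88 ± 0.11, adjusted p = 6.72e-05 for CAMK2D). The groups did not overlap in these 4 genes.

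Counts on the strand opposite to the gene were under 100 over the 4 libraries in 40 of the 41 genes, CACNB2 being the exception. They sufficed for a test in 5 of the 41 genes, CACNA2D2, CACNB2, CACNA2D4, CACNB3 and SCN8A, and none was called by edgeR's quasi-likelihood test, against 7% of the 7200 loci tested. At an unadjusted p under 0.05 there were 3, CACNA2D2, CACNA2D4 and CACNB3, all with more opposite-strand counts under SGSS05-NS, against 43.5% of the loci in either direction and 30.2% higher. The share of gene counts on the opposite strand was 4.64% to 4.67% with DMSO and 5.04% to 5.05% with SGSS05-NS over all genes, and its part in this direction was not tested. CACNA2D4 had 11 and 9 such counts with DMSO and 20 and 19 with SGSS05-NS, more than on its own strand.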

How the data were processed

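RNA of 2 DMSO and 2 SGSS05-NS libraries of SY5Y cells, independent biological replicates per the study's methods, was sequenced in pairs. The authors used Trimmomatic 0.30, then STAR 2.4.2a with hg19 and GENCODE 19, and deposited raw counts per gene, neither normalized nor pooled, for strands together and for each strand. The labels name a TruSeq RNA kit and the methods a stranded total RNA kit. The reverse-strand counts were used here; the other strand held 4.64% to 5.05%. Reads that map to several places are missing, which lowers close paralogs.

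Symbols and positions came from GENCODE 44 on GRCh37 by identifier (2282 of 57820 had no entry). Genes passing filterByExpr were fitted in edgeR 4.0.16 (R 4.3.3) with TMM scaling, the quasi-likelihood test, group as the only term, Benjamini-Hochberg adjustment over 16468 genes and the study's threshold of 0.001. The sign ± gives the standard error from 2 libraries per group (the log2 fold change over the square root of F), and 95% intervals span 2.18 of them to each side (12.1 degrees of freedom). The script was tested on simulated data.

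The genes and lists were chosen with earlier results of these data known. Some genes of the set and of the lists are counted but not reported here by name. Of the partner and calcium handling lists, the 4 genes with the smallest p-values are named, plus UNC79, UNC80, NALF1, NALF2, GEM, REM1, REM2 and RRAD, and KMT5A as the target. Alternatives were the likelihood ratio test, DESeq2 1.42.0, limma 3.58.1 voom, other scalings, filters and thresholds, strands together, the replicate number as a block, exonic length and each library left out.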

Additional observations from a re-analysis of the deposited data

How the results depend on the processing

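CACNA2D1, CACNA2D2 and CACNG4 were called lower under all 13 alternative fits, and CACNB4 under all but the one without SGSS05-NS replicate 2, with log2 fold changes of CACNB4 from -1.21 to -1.07 over the left-out libraries. SCN4B was called higher in all fits that tested it. The number of subunit genes called higher was 1, and became 6 by the likelihood ratio test, 2 by DESeq2, 5 with no filter, 0 with at least 10 counts in every library, 6 with the replicate block and between 1 and 3 without single libraries. At an adjusted p under 0.05 it was 6, with 7 lower. Over all genes, 1341 fell and 1049 rose, against 2267 and 2022 by the likelihood ratio test, 2570 and 2034 with no filter and 2007 and 1759 with the replicate block.

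Whether shared replicate numbers pair the libraries could not be settled. The deviations of the libraries numbered 1 correlated at 0.053. With 2 libraries per group, those numbered 2 mirror them and add nothing. The genes added under the replicate block included CACNB1, CACNB3, CACNG1 and SCN3B. The rank correlation of span and log2 fold change, -0.75, was -0.47 with no filter (37 genes), -0.68 with at least 10 counts (21 genes), -0.27 with exonic length in place of span, -0.753 with the span of the canonical transcript (chosen after seeing the data) and between -0.738 and -0.67 without single libraries. The median of the auxiliary subunits was -0.096 with at least 10 counts, and that of the pores lay between -0.334 and -0.0400 without single libraries. The cause was not tested. With a library left out, the lone library of its group was assumed to vary like the other group. Of the partner, calcium handling and target genes, UNC79 and KMT5A lost their call in 2 such fits each. Depth limited NALCN, SCN11A, CACNG5 and the 15 untested genes.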
